A study of Mus musculus with 8 samples.

Results

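Syndecans are cell surface proteoglycans, and Cadm1 is an adhesion protein of the immunoglobulin superfamily. To describe these molecules in immature myeloid cells (IMCs), the rows of 3 syndecans, Sdc1, Sdc3 and Sdc4, and of Cadm1 were taken by symbol from a deposited table of raw read counts. These 4 genes were taken from 24062 in the table, all 4 passed the filter on low counts, and 13197 genes passed in all. They were chosen by measured levels: Sdc1 was lower in PARP1CKO and higher in the PARP2 line, and the others were taken with it, with their levels known. Their values in those contrasts are therefore given as a description with no test. Libraries of total RNA numbered 8, and each of 4 groups had 2. PARP1 WT cells came from PARP1 flox/flox mice without Cre and PARP1CKO cells from PARP1 flox/flox mice that also carried lysozyme-Cre, whereas PARP2 WT and PARP2CKO cells came from PARP2 flox/flox mice without and with lysozyme-Cre. All mice were C57BL/6 and 2 months old, and the WT mice were littermates of the CKO mice, so that every group carried floxed alleles. Bone marrow was cultured for 3 days with 40 ng/mL of M-CSF, the growth factor of the macrophage lineage, in all groups. Lysozyme-Cre is driven by a myeloid promoter and leaves the floxed gene intact in cells that do not use it. The labels do not tie libraries to single animals or cultures, so p-values measure the spread between these libraries, which may be technical. The PARP1 WT and PARP1CKO libraries are called the PARP1 line below, and the other 4 the PARP2 line. A contrast between the lines sets the mean of the PARP2 WT and PARP2CKO levels against that of the PARP1 WT and PARP1CKO levels on the log2 scale.

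A syndecan has a short cytoplasmic tail, a single membrane span and an extracellular domain that carries heparan sulfate chains. Through these chains it holds growth factors, chemokines and matrix proteins at the cell surface, and proteases can shed the extracellular domain. Sdc1 (CD138) is best known from plasma cells and epithelia and is also made by macrophages, Sdc3 is best known from neural tissue, and Sdc4 is found widely and sits in focal adhesions. Cadm1 carries no heparan sulfate. It joins cells by binding itself or related molecules such as Crtam, is known as a mast cell adhesion molecule and marks type 1 dendritic cells.

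On GRCm38 (mm10, GENCODE M21), Sdc1 lies at chr12:8771323-8793715 on the plus strand, Sdc3 at chr4:130792537-130826319 on the plus strand, Sdc4 at chr2:164424247-164443887 on the minus strand and Cadm1 at chr9:47530173-47857637 on the plus strand. Their merged exons cover 3809, 5989, 2547 and 10440 bases. The genes Gm12970 and Gm26716 run antisense to Sdc3 and overlap its exons. Neither was matched to a row of the table, and whether counting used the strand is not stated, so reads from them and from Sdc3 cannot be told apart here. RefSeq promoter windows of 250 bases before to 50 after the start (build GRCm38.p6) were found for 3 of the 4 genes, Sdc1, Sdc3 and Sdc4. The stretches upstream of the annotated starts are shown for the syndecan that differed most between groups and for the most abundant one, with the GC box (GGGCGG on either strand, a letter match to the Sp1 family motif) in capitals. The Sdc1 stretch spans chr12:8771146-8771322 and the Sdc3 stretch chr4:130792287-130792536, both on the plus strand.
Sdc1: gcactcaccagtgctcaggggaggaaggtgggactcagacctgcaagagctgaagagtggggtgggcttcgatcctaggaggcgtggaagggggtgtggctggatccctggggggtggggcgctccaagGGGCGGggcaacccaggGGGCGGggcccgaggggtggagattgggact
Sdc3: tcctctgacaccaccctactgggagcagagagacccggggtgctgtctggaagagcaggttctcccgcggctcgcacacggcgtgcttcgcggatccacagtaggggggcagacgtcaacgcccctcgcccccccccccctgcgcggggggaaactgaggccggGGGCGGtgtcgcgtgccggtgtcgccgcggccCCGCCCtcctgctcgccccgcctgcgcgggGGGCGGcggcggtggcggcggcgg
The Sdc1 stretch held 2 GC boxes in 177 bases and had a GC content of 68.4%, and the Sdc3 stretch held 3 in 250 bases at 76.4%. In the full windows of 300 bases Sdc1 had 3 GC boxes, Sdc3 had 3 and Sdc4 had 4, in the last case in a window that lies inside the GENCODE gene, with its 5′ end 449 bases from the GENCODE start. The GC box is a motif that 35.7% of 32851 RefSeq windows of that length hold. The AP-1 letters TGANTCA were in none of the 3 windows and in 7.81% of all windows. The PU.1 letters GAGGAAG occurred once, in Sdc1, and in 13.6% of all windows (all motifs were searched on both strands and none of the matches overlap). These letter matches say nothing of binding.

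The targeted genes were examined first, because they check the labels. Levels are given as CPM, the counts scaled to a common library total with TMM factors. The level of Parp1 was 202 and 211 CPM in the PARP1 WT libraries against 63.2 and 59.1 CPM in those of PARP1CKO. Its fitted log2 change was -1.75 (standard error, SE, 0.178, Benjamini-Hochberg adjusted p = 0.0134 by the edgeR quasi-likelihood test). That of Parp2 was 48.2 and 48.3 CPM in the PARP2 WT libraries against 25.7 and 25.6 CPM in those of PARP2CKO, with a fitted log2 change of -0.91 (SE 0.0453, adjusted p = 0.000139 by edgeR). Both targeted genes were lower in both of their CKO libraries. The adjusted p of Parp1 by edgeR was 0.0753 without PARP1 WT replicate 1, 0.0650 without PARP1 WT replicate 2 and 0.0531 without PARP1CKO replicate 2, with log2 changes of -1.79, -1.73 and -1.71. The 8 libraries held between 37852450 and 61845125 counts on genes (median 49646086). With 2 libraries a group, an exact two-sided permutation test of a single gene cannot give a p under 0.333, and the p-values given are those of a fit across all genes and all 8 libraries.

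Sdc1 was the syndecan whose level varied most, with a 5.64-fold range over the 8 libraries. It had 427 and 596 counts in PARP1 WT (11.0 and 12.01 CPM) and 354 and 295 in PARP1CKO (7.02 and 6.53 CPM). In the PARP2 line it had 1607 and 1091 counts in PARP2 WT (27.8 and 21.0 CPM) and 2195 and 1038 in PARP2CKO (36.8 and 21.5 CPM). Every library of the PARP2 line was therefore above every library of the PARP1 line, and both PARP1CKO libraries were below both PARP1 WT libraries. The counts were high enough that counting error was small: even for the 295 counts the exact 95% Poisson interval ran from 262 to 331, which covers counting error only. The group means were 11.5 ± 0.690 CPM in PARP1 WT, 6.77 ± 0.348 in PARP1CKO, 24.4 ± 4.82 in PARP2 WT and 29.1 ± 10.8 in PARP2CKO (SD, n = 2). In PARP1CKO its fitted level was 0.587 times that of PARP1 WT, a log2 fold change of -0.77 (SE 0.256). The PARP2 line exceeded the PARP1 line 3.02-fold (log2 1.59, SE 0.168), and between the WT groups alone the ratio was 2.11-fold (log2 1.08, SE 0.231). In PARP2CKO the pair of libraries differed 1.71-fold from each other, and PARP2CKO replicate 2 lay within the PARP2 WT range. The log2 fold change against PARP2 WT was 0.26 (SE 0.215, 95% interval -0.23 to 0.75, adjusted p = 0.956 by edgeR), and it was -0.18 without PARP2CKO replicate 1.

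**Figure D1:**
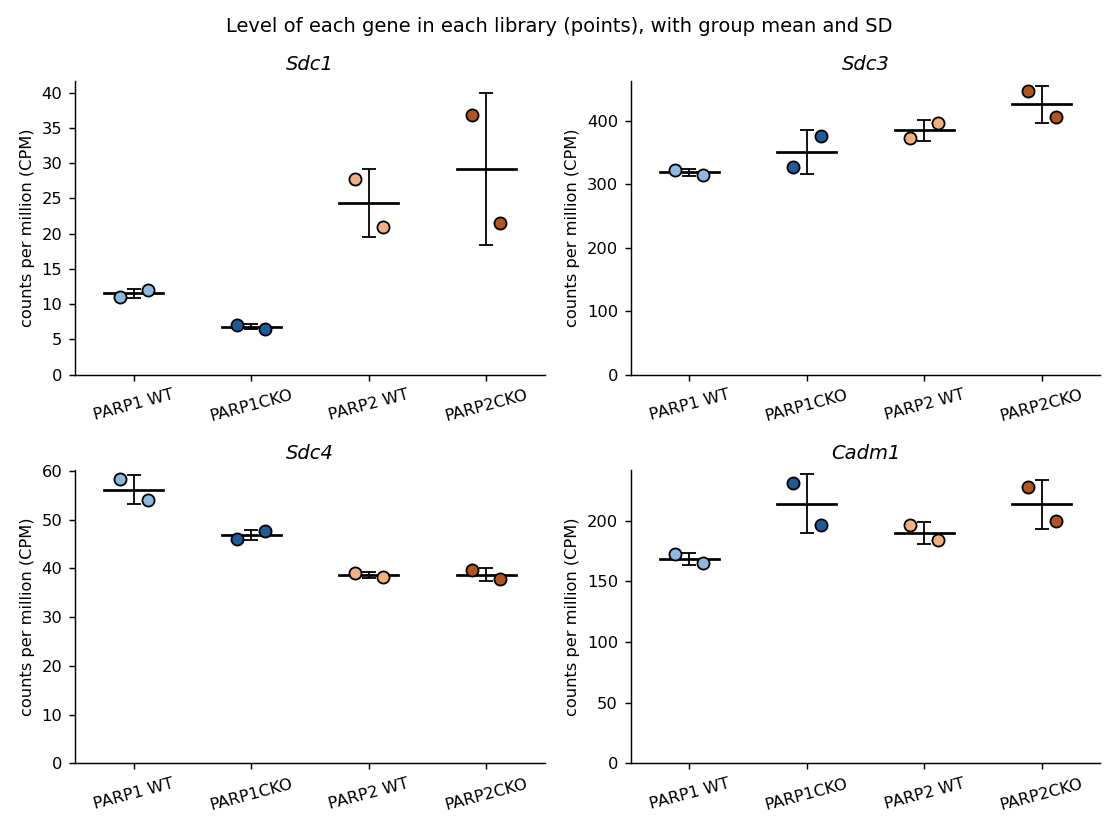
CPM of Sdc1, Sdc3, Sdc4 and Cadm1 in each library (points), by group, with the group mean and SD (lines, n = 2); all axes start at 0. Sdc1 lies between 6.53 and 12.01 CPM in the PARP1 line and between 21.0 and 36.8 CPM in the PARP2 line, whereas Sdc4 is lower in the PARP2 line.

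Sdc3 was the most abundant of the syndecans and varied little. The PARP1 WT libraries held 323 and 315 CPM, the PARP1CKO libraries 327 and 375 CPM, the PARP2 WT libraries 373 and 396 CPM and the PARP2CKO libraries 447 and 406 CPM. Both CKO groups lay above their own WT group without overlap, and PARP1CKO replicate 2 reached the level of the PARP2 WT libraries. The means were 319 ± 5.45, 351 ± 34.5, 385 ± 16.3 and 426 ± 29.2 CPM in that order of groups (SD, n = 2). Against PARP1 WT the log2 fold change in PARP1CKO was 0.14 (SE 0.0723), and it was 0.03 without PARP1CKO replicate 2. Against PARP2 WT it was 0.15 in PARP2CKO (SE 0.0720, 95% interval -0.01 to 0.31, adjusted p = 0.954 by edgeR). The PARP2 line was 0.28 higher than the PARP1 line on the log2 scale (SE 0.0510), with overlapping ranges.

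Sdc4 had its highest level where Sdc1 did not, in PARP1 WT. The PARP1 WT libraries held 58.3 and 54.0 CPM, the PARP1CKO libraries 46.1 and 47.6 CPM, the PARP2 WT libraries 39.1 and 38.2 CPM and the PARP2CKO libraries 39.6 and 37.8 CPM. The libraries of PARP1 WT lay above those of PARP1CKO, and both lay above all 4 libraries of the PARP2 line, within which the groups overlapped. The means were 56.1 ± 3.01, 46.8 ± 1.05, 38.7 ± 0.624 and 38.7 ± 1.30 CPM (SD, n = 2). The log2 fold change in PARP1CKO was -0.26 (SE 0.0507), and that of the PARP2 line against the PARP1 line was -0.41 (SE 0.0360). In PARP2CKO it was 0.00125 (SE 0.0511), with a 95% interval from -0.11 to 0.12 and an adjusted p of 0.998 by edgeR. That interval leaves a PARP2CKO level of Sdc4 between 0.924 and 1.08 times that of PARP2 WT.

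The mean level of Cadm1 was higher in both CKO groups than in their WT groups, and in PARP2CKO the difference did not pass the test. The PARP1 WT libraries held 172 and 165 CPM, the PARP1CKO libraries 231 and 197 CPM, the PARP2 WT libraries 196 and 184 CPM and the PARP2CKO libraries 228 and 199 CPM. Replicate 1 was the higher library in each of the 4 groups. The means were 169 ± 4.93, 214 ± 24.3, 190 ± 8.92 and 214 ± 20.1 CPM (SD, n = 2). The log2 fold change was 0.34 in PARP1CKO (SE 0.0845), and leaving out PARP1CKO replicate 1 brought it to 0.22. In PARP2CKO it was 0.17 (SE 0.0839, 95% interval -0.02 to 0.36, adjusted p = 0.954 by edgeR). Between the lines the ranges of Cadm1 overlapped, with a log2 difference of 0.08 (SE 0.0595). That difference was 0.029 without PARP1CKO replicate 2 and 0.145 without PARP1CKO replicate 1. It was 0.035 with library size alone as the scaling and 0.17 between the WT groups alone.

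**Figure D2:**
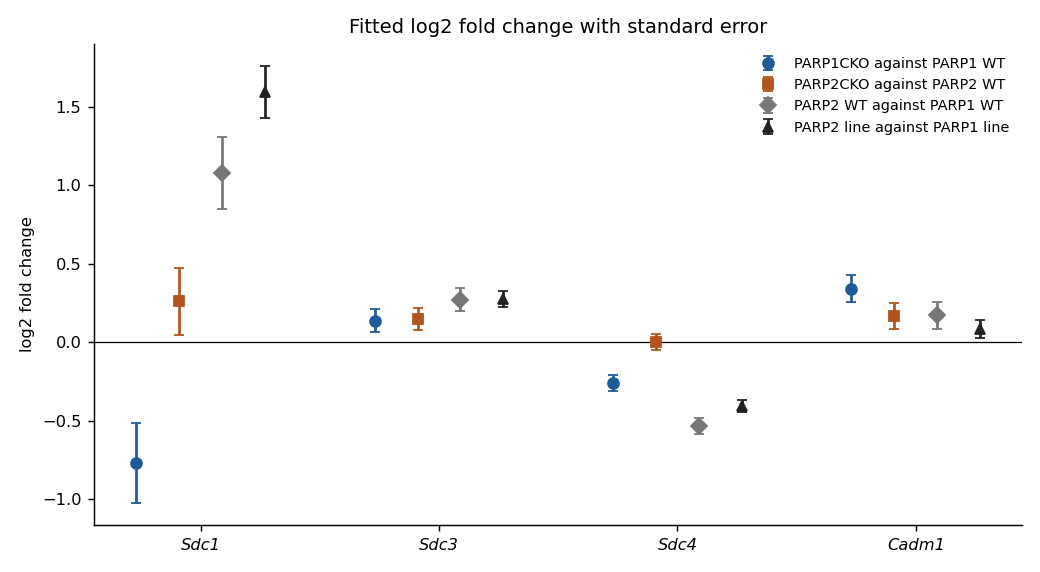
Fitted log2 fold change of the 4 genes in 4 comparisons, with its SE as bars. Sdc1 spans from -0.77 in PARP1CKO to 1.59 between the lines, and the PARP2CKO values of all 4 genes lie between 0.00125 and 0.26.

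In PARP2CKO, the comparison that did not enter the choice of these genes, 0 of the 4 passed an adjusted p of 0.05 by the edgeR quasi-likelihood test, against 0.053% of all genes tested (7 of 13197). None of the 4 had an unadjusted p under 0.05 in that test (the lowest was 0.0696, for Sdc3), against 4.83% of all genes, and 0 passed with DESeq2 or edgeR's likelihood-ratio test. Sdc3 and Cadm1 were higher there with no overlap between the groups, a separation seen for 37.2% of all genes. In PARP1CKO all 4 genes were separated from PARP1 WT, Sdc1 and Sdc4 lower and Sdc3 and Cadm1 higher, where 41.2% of all genes were. Between the WT groups all 4 were separated, with Sdc1, Sdc3 and Cadm1 higher in PARP2 WT and Sdc4 lower, where 51.9% of all genes were. Between the lines Sdc1 (higher) and Sdc4 (lower) were separated, and 20.4% of all genes were. The genes were chosen with their levels in these contrasts known. The separations in PARP1CKO, between the WT groups and between the lines therefore partly restate the choice and are no support for a difference. The PARP1CKO and line contrasts share the PARP1 libraries, and the PARP2CKO and line contrasts share the PARP2 libraries. By mean level, the order of Sdc1 was from PARP1CKO through PARP1 WT and PARP2 WT to PARP2CKO, of which the last pair overlapped. Sdc4 went from the overlapping PARP2 groups through PARP1CKO to PARP1 WT, so the order of the lines was opposite to that of Sdc1, whereas both genes were lower in PARP1CKO than in PARP1 WT. Sdc3 went from PARP1 WT through PARP1CKO and PARP2 WT, which overlapped, to PARP2CKO. Cadm1 went from PARP1 WT through PARP2 WT to the PARP2CKO and PARP1CKO groups, which overlapped.

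**Figure D3:**
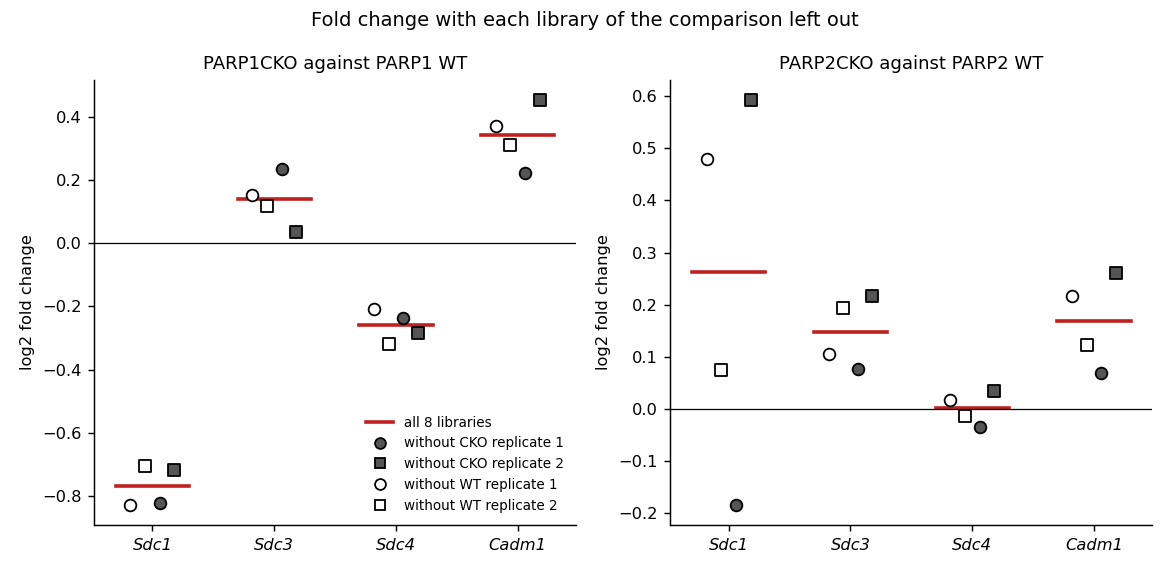
Log2 fold change of each gene with each library of the comparison left out in turn (points) and with all 8 libraries (lines), for PARP1CKO (left) and PARP2CKO (right), on separate vertical scales. In PARP1CKO all points of Sdc1 lie between -0.83 and -0.71, whereas in PARP2CKO they run from -0.18 to 0.59.

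The makeup of syndecan mRNA was compared per length, with CPM divided by the merged exon length in kilobases. On this scale the level of Sdc3 was 52.6 to 74.6 CPM per kb, that of Sdc4 14.8 to 22.9, that of Sdc1 1.71 to 9.66 and that of Sdc2 0.332 to 0.897. Cadm1 had 15.8 to 22.2 CPM per kb, close to the level of Sdc4 on this scale, whereas in CPM it had 165 to 231 against 37.8 to 58.3. The merged exon length need not be that of the transcripts made or of the annotation used for counting. Reads from the antisense genes could also enter the level of Sdc3. Sdc2, the fourth syndecan of the mouse, was the least abundant, with between 52 and 157 counts in a library. Sdc3 made up 67.3% to 76.3% of the 4 syndecans summed. The share of Sdc4 was 22.4% to 28.6% in the PARP1 line and 15.5% to 17.98% in the PARP2 line. The share of Sdc1 was 2.05% to 4.05% in the PARP1 line and 6.32% to 9.63% in the PARP2 line. Neither the Sdc4 shares nor the Sdc1 shares overlapped between the lines. The summed level was 74.8 to 83.4 CPM per kb in the PARP1 line and 85.4 to 100.3 CPM per kb in the PARP2 line.

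**Figure D4:**
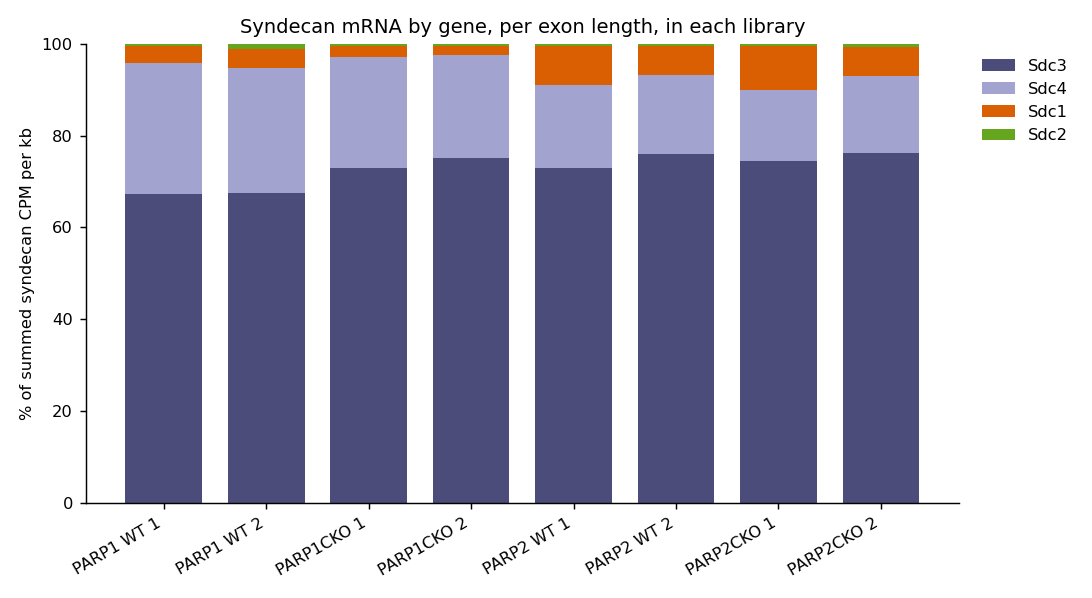
Share of each syndecan in the summed syndecan CPM per kb, in each of the 8 libraries (stacked bars, in percent). Sdc3 takes 67.3% to 76.3% in all libraries, Sdc4 takes less and Sdc1 more in the PARP2 line.

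The wider system was followed in 120 listed genes, of which 97 passed the filter: other proteoglycan core proteins, heparan sulfate synthesis, shedding and breakdown, cytoplasmic partners, the Cadm and nectin family, and heparan sulfate binding ligands and co-receptors. In neither CKO comparison did a list gene pass the adjusted threshold by the edgeR quasi-likelihood test, against 0.106% of all genes in PARP1CKO and 0.053% in PARP2CKO. An unadjusted p under 0.05 was seen for 17 of the 97 list genes in PARP1CKO, against 11.3% of all genes, and for 4 in PARP2CKO, against 4.83% of all genes. With only the 4 libraries of the comparison, the 17 became 14 of 95 list genes in PARP1CKO, where 1078 of 12940 of all genes had such a p. The 4 became 14 of 96 in PARP2CKO, where 927 of 13021 of all genes did. Both counts rested on single libraries: leaving out 1 library of the comparison moved each of them up or down, and the counts over all genes moved too. DESeq2 and the likelihood-ratio test each called 1 list gene in each comparison, as did the quasi-likelihood test without the filter. Of all genes these settings called 0.652%, 1.11% and 0.576% in PARP1CKO and 0.205%, 0.296% and 0.148% in PARP2CKO. Under these 3 settings the list gene called in PARP1CKO was Hgsnat, a lysosomal enzyme of heparan sulfate breakdown, at 131 ± 2.64 CPM in PARP1CKO against 92.5 ± 7.56 in PARP1 WT (SD, n = 2, log2 change 0.50, SE 0.0951, adjusted p = 0.136 by edgeR), a gene singled out after its values were seen. The list gene they called in PARP2CKO was Mmp9, a protease that sheds syndecans, at 22.9 ± 2.07 CPM in PARP2CKO against 30.9 ± 2.36 in PARP2 WT (log2 change -0.43, SE 0.0971, adjusted p = 0.557 by edgeR). Without PARP1CKO replicate 1 the quasi-likelihood test called a different list gene in PARP1CKO, Papss2, which makes the sulfate donor, of 34 genes called in all. The median log2 fold change over the list genes was 0.0123 in PARP1CKO and 0.0392 in PARP2CKO, beside 0.00586 and -0.00140 over all genes.

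Between the lines 20 of the 97 list genes passed, 17 higher and 3 lower in the PARP2 line (14 and 7 with library size alone as the scaling). That is 20.6% of them, against 16.4% of all genes, of which 8.36% were higher and 8.04% lower. Over all genes 1103 were higher and 1061 lower, and 720 and 1927 with library size alone. The list count fell to 13 without PARP2CKO replicate 1. The median log2 difference was 0.0410 over the list genes and -0.000169 over all genes. Between the WT groups alone 6 passed (6.19%, against 3.16% of all genes), and these were Tnfsf13, Fn1, Apoe, Tgfbr3, Mmp14 and Mmp9. That count was 1 without PARP1 WT replicate 1 and 3 without PARP2 WT replicate 1. The adjusted p-values that follow come from the edgeR fit and compare the lines.

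Of the 16 ligands and co-receptors, 6 were higher in the PARP2 line and 0 lower. Tnfsf13 (APRIL), a cytokine that binds the heparan sulfate of Sdc1, had 14.0 to 22.0 CPM in the PARP1 line and 40.6 to 46.3 CPM in the PARP2 line (log2 1.30, SE 0.0806, adjusted p = 5.75e-05). Fn1, the matrix protein fibronectin, had 4.11 to 4.82 and 7.46 to 8.30 CPM (log2 0.87, adjusted p = 0.000219). Apoe, a lipid carrier that binds heparan sulfate, had 349 to 457 and 610 to 820 CPM (log2 0.83, adjusted p = 0.000344). Lpl, a lipase anchored by heparan sulfate, had 2719 to 3687 and 3818 to 4993 CPM (log2 0.49, adjusted p = 0.00748). For each of these 4 genes the lines did not overlap.

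Of the 16 shedding and breakdown genes, 4 were higher and 2 lower in the PARP2 line. Mmp14, a membrane protease that cleaves syndecans, had 3.27 to 4.03 CPM in the PARP1 line and 6.25 to 9.76 CPM in the PARP2 line (log2 1.11, SE 0.129, adjusted p = 0.00103). Mmp9 was lower, with 46.7 to 56.2 and 21.5 to 32.5 CPM (log2 -0.90, SE 0.0674, adjusted p = 0.000123), and Hpse, the heparanase that cuts the chains, was lower at 88.8 to 123 and 70.8 to 84.6 CPM (log2 -0.38, adjusted p = 0.0144). Sulf2, which removes sulfate from the chains outside the cell, was higher at 63.9 to 80.7 and 94.0 to 125 CPM (log2 0.56, adjusted p = 0.00279). The members of this list thus went in both directions. Adam17, a sheddase of syndecans, differed by 0.12 on the log2 scale (189.8 to 192 against 198 to 213 CPM, adjusted p = 0.0205). Mmp2 was under 0.4 CPM in every library (log2 1.15, adjusted p = 0.0155). Adam10, another sheddase, was not called (290.5 to 333 CPM over all libraries, adjusted p = 0.185). The call of Hpse was lost without PARP1 WT replicate 1 (adjusted p = 0.0540) or PARP2CKO replicate 1 (0.0585), and that of Mmp2 without PARP2 WT replicate 1 (0.0550) or PARP2CKO replicate 1 (0.0631) and with DESeq2 (0.191). That of Adam17 was lost with library size alone (0.133) and without PARP1 WT replicate 1 (0.0529), PARP1CKO replicate 2 (0.0503), PARP2 WT replicate 2 (0.0902), PARP2CKO replicate 1 (0.0557) or PARP2CKO replicate 2 (0.0556).

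Of 24 synthesis genes, 3 were higher and 0 lower. Xylt1, which starts the chain on the core protein, had 12.1 to 13.0 CPM in the PARP1 line and 15.2 to 20.5 CPM in the PARP2 line (log2 0.49, adjusted p = 0.00418). Ndst1, which modifies the growing chain with N-sulfate, had 87.5 to 94.3 and 103 to 127 CPM (log2 0.30, adjusted p = 0.0106). Papss1, which makes the sulfate donor, had 33.1 to 40.1 and 44.6 to 45.4 CPM (log2 0.29, adjusted p = 0.00470). The chain polymerase Ext1, at 27.0 to 30.4 CPM, was not called (adjusted p = 0.457). Of 13 other core proteins 1 was higher, the co-receptor Tgfbr3 (betaglycan) with 1.06 to 1.65 and 1.94 to 2.77 CPM (log2 0.73, adjusted p = 0.00962), and 1 was lower, the granule proteoglycan Srgn (log2 -0.24, adjusted p = 0.0468, lines overlapping). Sdc2 (adjusted p = 0.934) and Cd44, a hyaluronan receptor at 407 to 498 CPM (adjusted p = 0.187), were not called. Of 14 cytoplasmic partners 3 were higher, the actin crosslinker Actn1 (log2 0.27, adjusted p = 0.00550), the Rac activator Tiam1 (log2 0.21, adjusted p = 0.0145) and the membrane linker Ezr (log2 0.14, adjusted p = 0.0329, lines overlapping). Srgn and Ezr are named after their values were seen. The call of Srgn was lost without any 1 of the libraries but PARP1CKO replicate 1 (adjusted p = 0.0639 to 0.156, log2 -0.15 without PARP1CKO replicate 2) and with a replicate block (0.0536). That of Ezr was lost without any 1 of the libraries but PARP1 WT replicate 2 and PARP1CKO replicate 2 (adjusted p = 0.0750 to 0.0931) and with library size alone (0.127). The call of Tiam1 was lost without PARP2 WT replicate 1 (adjusted p = 0.0554) or PARP2CKO replicate 1 (0.0503). The adaptors Sdcbp (syntenin, 695 to 812 CPM) and Cask (19.3 to 23.1 CPM), which bind the syndecan tail, were not called. Of the 14 genes of the Cadm and nectin list 0 were called between the lines by the edgeR quasi-likelihood test, with 5 at an unadjusted p under 0.05, where 31.9% of all genes were. Epb41l3, a membrane skeleton protein that binds the Cadm1 tail and is listed as Epb4.1l3, had 1.69 to 2.78 CPM over all libraries (adjusted p = 0.111). Crtam, a binding partner of Cadm1 on lymphocytes, had 0 to 0.104 CPM and was not tested.

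**Figure D5:**
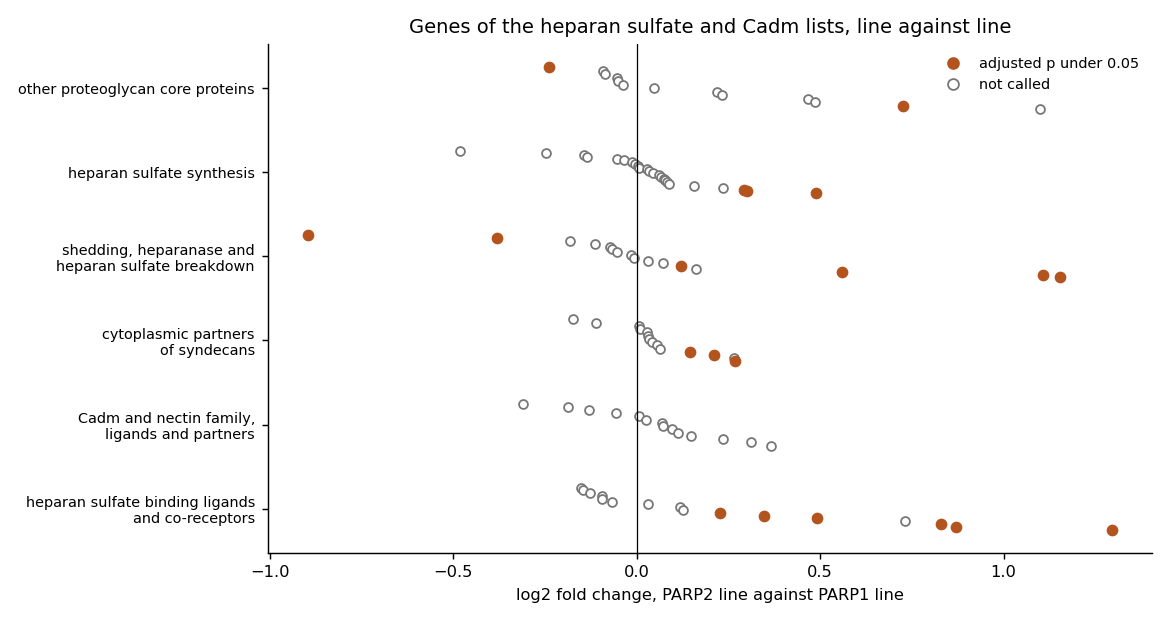
Log2 fold change of the PARP2 line against the PARP1 line for the 97 tested list genes, 1 point a gene, by list. Filled points have an adjusted p under 0.05 (20 genes, 17 to the right of 0 and 3 to the left); the ligand list has 6 filled points, all to the right.

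Genes whose level followed each member were ranked by Pearson's r of log2 CPM over the 8 libraries, among genes with a mean of at least 1 CPM. The libraries fall into 2 lines, and any gene that differs between the lines shares that split, so r is a description. For Sdc1 the closest genes were Cspg4 (r = 0.989), another proteoglycan core protein, then the kinase Syk (r = 0.984) and the ectonucleotidase Entpd1 (r = 0.982). Cspg4 had 1.99 to 4.56 CPM in the PARP1 line and 9.78 to 21.0 CPM in the PARP2 line. For Sdc4 they were Cd300e (r = 0.992), a myeloid surface receptor with 2.52 to 4.96 CPM in the PARP1 line and 1.51 to 1.79 CPM in the PARP2 line, Ercc6l (r = 0.978) and Net1 (r = 0.977). For Sdc3 they were Hagh (r = 0.985), Pdhx (r = 0.970) and B430306N03Rik (r = 0.967), and for Cadm1 Plekhm2 (r = 0.981), Ppargc1b (r = 0.973) and Arhgef10l (r = 0.949). An r above 0.9 was reached with Sdc1 by 2.61% of 11446 genes, with Sdc4 by 1.12%, with Sdc3 by 0.952% and with Cadm1 by 0.245%.

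Markers of the cell types these cultures could hold were set beside the levels. Between the lines 16.4% of all genes were called (8.36% higher and 8.04% lower) and 31.9% had an unadjusted p under 0.05, against which the marker counts that follow are to be read. Of the 6 immature myeloid markers listed, 5 were found and Ly6g was not. Itgam had 881 to 1035 CPM, Csf1r 1134 to 1273, Ly6c2 53.9 to 72.2, Cd33 46.7 to 66.1 and Ly6c1 0.605 to 1.02 CPM. Macrophage markers, given below, were also present in every library, so these values do not tell immature myeloid cells from macrophages. The 5 markers summed to 2192 to 2260 CPM in the PARP1 line and 2233 to 2406 CPM in the PARP2 line. Between the lines 0 of them were called by the quasi-likelihood test, with 3 at an unadjusted p under 0.05. Of the plasma cell markers, where Sdc1 is the standard surface marker, 6 of 8 were found and 3 (Mzb1, Tnfrsf17 and Derl3) were under 1 CPM in every library. The summed plasma cell list was 12.3 to 15.4 CPM in the PARP1 line and 13.8 to 16.8 CPM in the PARP2 line, with Prdm1 higher and Mzb1 lower in the PARP2 line. Most of this sum came from Irf4 (5.57 to 8.30 CPM over all libraries) and Prdm1 (3.54 to 7.53 CPM). How far it reflects plasma cells was not tested. B cell markers were lower in the PARP2 line, at 8.05 to 11.3 CPM against 29.4 to 42.8 CPM, and 6 of 6 passed. Markers of mast cells and basophils, cells that carry Cadm1, were also lower, at 22.2 to 31.1 against 49.8 to 53.0 CPM with 7 of the 7 tested passing, and Tpsb2 was at or near 0 throughout. The largest part of that sum was Kit, at 14.4 to 18.4 against 28.1 to 31.7 CPM. Type 1 dendritic cell markers summed to 12.3 to 16.0 against 16.6 to 18.1 CPM (1 of 6 lower). Osteoclast markers summed higher in the PARP2 line, at 153 to 199 against 75.7 to 86.3 CPM with 3 of 5 tested passing (Ctsk, Acp5 and Atp6v0d2), and Calcr was at or near 0. Most of the sum was Atp6v0d2, at 106 to 146 against 55.9 to 67.2 CPM. Dcstamp (log2 -0.04, adjusted p = 0.894 by edgeR) and Ocstamp (under 1 CPM, adjusted p = 0.216 by edgeR) were not called. Macrophage markers were higher as well, at 1791 to 1991 against 1588 to 1713 CPM (4 of 6). Neutrophil markers summed to 2876 to 3466 against 2616 to 3298 CPM (2 of 7 higher), endothelial markers to 91.7 to 109.7 against 110.1 to 132 CPM (1 of 5 lower) and stromal markers to 1.86 to 4.08 against 1.69 to 3.77 CPM (1 of 5 tested higher, with Lum and Pdgfra at or near 0). In the CKO comparisons 0 marker genes passed the quasi-likelihood test (of the 57 tested, 3 in PARP1CKO and 9 in PARP2CKO had an unadjusted p under 0.05, against 11.3% and 4.83% of all genes). The 3 moved both up and down when single libraries of the PARP1CKO comparison were left out. With only the 4 libraries of the comparison, 6 of 54 markers had such a p in PARP1CKO, where 1078 of 12940 of all genes did. In PARP2CKO 12 of 54 did, where 927 of 13021 of all genes did. DESeq2 called 1 in PARP2CKO, Atp6v0d2, and the quasi-likelihood test without PARP2 WT replicate 2 called 2 there, Atp6v0d2 and Hdc, of 14 genes called in all. The part of these markers in the levels of Sdc1, Sdc4 and Cadm1 was not tested. In bulk RNA, fewer cells of a type and less RNA per cell cannot be told apart, and neither can the floxed line and anything else that differed between the PARP1 and PARP2 mice or cultures.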

How the data were processed

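The authors deposited raw counts of reads on genes for 8 libraries, made from single-end reads of 75 bases (TruSeq stranded total RNA, 4 µg a library). By the study's methods and the submitters' processing notes, reads were trimmed with fastq-mcf, checked with FastQC 0.11.2, mapped to mm10 with TopHat2 2.0.12, marked for duplicates with Picard 1.127 and counted with featureCounts. The annotation, the use of strand and the treatment of marked duplicates are not given in the sources used here. Of 24062 genes, 6520 had no count. Columns outside the 8 libraries numbered 0.

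Counts were fitted in R 4.3.3 with edgeR 4.0.16: filterByExpr (13197 genes), TMM factors (0.965 to 1.03), a mean for each group over all 8 libraries, the quasi-likelihood test and Benjamini-Hochberg adjustment over all genes tested at a threshold of 0.05. The common biological coefficient of variation was 0.055. Both libraries of each group differed by more than sampling noise (chi-square per gene 8.32 to 12.6, genes with at least 10 counts), so that none was taken as a second copy of another; this does not show that they came from separate animals or cultures. The script was tested on simulated data. Log2 CPM used a prior count of 2. List genes that the table holds under older symbols were matched through RefSeq synonyms. Plots used matplotlib 3.10.9.

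The 4 genes, the lists and the rules were chosen with earlier results of these data known. Named are the 4 genes, Parp1 and Parp2, per list and comparison at most 4 called genes with the largest fold change and no overlap, 12 fixed genes (Sdc2, Sdcbp, Cask, Ext1, Ndst1, Hpse, Adam10, Adam17, Mmp9, Crtam, Cd44 and Epb41l3), and the 3 genes with the highest r with each member. Marker lists covered immature myeloid, plasma, B, mast and basophil, type 1 dendritic, macrophage, neutrophil, osteoclast, stromal and endothelial cells. Alternatives were DESeq2 1.42.0, its size factors, library size alone, no filter, at least 1 CPM in 2 libraries, the likelihood-ratio test, a replicate block, only the 4 libraries of a comparison, the WT groups alone and leaving out each library.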

Additional observations from a re-analysis of the deposited data

Results flagged for a closer look

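Of the tested genes named, leaving out the marker Ly6c1, 6 lay on opposite sides of their WT groups in the 2 CKO comparisons, with no overlap between groups in either. Ly6c1, at most 1.02 CPM, was separated likewise, higher in PARP1CKO and lower in PARP2CKO. Over all genes 41.2% were separated in PARP1CKO and 37.2% in PARP2CKO. The share of all genes separated in opposite directions was not counted, so the 6 are not shown to be unusual. For Tnfsf13 the PARP2CKO effect minus the PARP1CKO effect was 0.49 on the log2 scale (adjusted p = 0.582 by the edgeR quasi-likelihood test of the interaction), with 19.5 ± 3.54 CPM in PARP1 WT, 15.4 ± 1.90 in PARP1CKO, 40.7 ± 0.0781 in PARP2 WT and 44.8 ± 2.13 in PARP2CKO (SD, n = 2). For Sdc2 it was 1.131 (adjusted p = 0.642 from the same test), and the PARP1 WT pair stood at 1.34 and 3.16 CPM. For Adam10 it was 0.13 (adjusted p = 0.692 from the same test), with levels between 290.5 and 333 CPM. Without PARP1 WT replicate 2 the difference was 0.36 for Sdc2, 0.29 for Tnfsf13 and 0.07 for Adam10. Without PARP1 WT replicate 1 it was 1.60, 0.66 and 0.19 in that order. For Atp6v0d2, an osteoclast marker, it was 0.53 (adjusted p = 0.239 from the same test), and its PARP1CKO libraries held 57.0 and 55.9 CPM against 67.2 and 64.8 CPM without Cre, those of PARP2CKO 146 and 142 CPM against 106 and 127 CPM. For Entpd1 it was 0.39 (adjusted p = 0.192 from the same test). For Parp1, which is deleted in PARP1CKO alone, it was 2.13 (adjusted p = 0.0552 from the same test), with 251 and 155 CPM in PARP2 WT against 263 and 264 in PARP2CKO. The 6 genes were picked because the same libraries lay apart in opposite directions. Entpd1 was named only for following Sdc1, itself chosen by its levels. Tests of these differences therefore partly restate the choice, and a pass is no support for a difference. None of these 6 differences passed in the edgeR quasi-likelihood test on all 8 libraries. With the likelihood-ratio test, with DESeq2 and without the filter on low counts those of Atp6v0d2 (adjusted p = 0.00140 to 0.00902), Entpd1 (0.00451 to 0.0426) and Parp1 (3.81e-14 to 3.30e-06) did. The edgeR quasi-likelihood test also called that of Atp6v0d2 without PARP2 WT replicate 2 (adjusted p = 0.0170), and that of Parp1 with library size alone (0.0484), without PARP1CKO replicate 1 (0.0411) and without PARP2 WT replicate 1 (1.10e-05) or 2 (0.000136). Over all alternatives the adjusted p was 0.198 to 0.949 for Tnfsf13, at least 0.224 for Sdc2 and at least 0.541 for Adam10. For Parp2, which is deleted in PARP2CKO alone, the difference was -0.82 and passed (adjusted p = 0.00634 by the same edgeR test), with 39.1 and 40.8 CPM in PARP1 WT against 38.3 and 37.0 in PARP1CKO.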

How the results depend on the processing

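With 2 libraries a group, some values rested on single libraries, and a group left with 1 library was assumed to vary like the others. Leaving out each library in turn moved the number of genes called in PARP1CKO from 14 to 3 and 1 (without PARP1 WT replicates 1 and 2), 34 and 7 (without PARP1CKO replicates 1 and 2), and in PARP2CKO from 7 to 4 (without either PARP1 WT library), 19 and 14 (without PARP2 WT replicates 1 and 2) and 11 (without PARP2CKO replicate 2). Between the lines it fell from 2164 to 1336 without PARP1 WT replicate 1, 1310 and 1373 without PARP2 WT replicates 1 and 2 and 1082 without PARP2CKO replicate 1, and reached 2327 without PARP1CKO replicate 1. For the difference between the CKO effects it went from 2 to between 1 (without PARP1 WT replicate 2) and 16 (without PARP1CKO replicate 1), with 10 without PARP2 WT replicate 2 or PARP2CKO replicate 2, 8 without PARP2 WT replicate 1, 6 without PARP2CKO replicate 1 and 4 without PARP1CKO replicate 2. Without the filter on low counts the numbers called were 101 in PARP1CKO, 26 in PARP2CKO and 61 for the difference, with the likelihood-ratio test 146, 39 and 72, and with DESeq2 86, 27 and 46. The WT groups alone gave 417 calls between the lines, and fewer without any 1 of the WT libraries. Of all genes, 872 of 17542 were called there without the filter, 910 of 13197 with the likelihood-ratio test and 551 of 13197 with DESeq2. Under these settings the 6 list genes among the 417 became 14 of 114, 12 of 97 and 10 of 97 tested. Of the 417, 254 were higher and 163 lower in PARP2 WT, and with library size alone 197 and 213. The cause of these moves was not tested.

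With each library left out, Sdc1 ran from -0.83 to -0.71 in PARP1CKO, from -0.18 to 0.59 in PARP2CKO and from 1.37 to 1.76 between the lines. Sdc3 ran from 0.035 to 0.24 in PARP1CKO and from 0.08 to 0.22 in PARP2CKO, and Cadm1 from 0.22 to 0.45 and from 0.07 to 0.26. Sdc4 ran from -0.32 to -0.21 in PARP1CKO and from -0.034 to 0.035 in PARP2CKO, negative at -0.01 without PARP2 WT replicate 2 and -0.034 without PARP2CKO replicate 1. Sdc4 in PARP2CKO was -0.0250 with library size alone and -6.27e-05 without the filter. Between the lines Sdc4 was -0.46 with library size alone and -0.54 in the WT groups alone, where Sdc1 was 1.08. Over all alternatives the adjusted p in PARP2CKO was 0.601 to 1 for Sdc1, 0.676 to 1 for Sdc3, 0.952 to 1 for Sdc4 and 0.680 to 1 for Cadm1. For 18 of the 20 list genes called between the lines, 247 of 287 alternatives kept direction and side of the threshold, 40 kept direction only and 0 reversed. The tally leaves out the other called genes, Itgb5 (log2 0.23, adjusted p = 0.0241 by edgeR) and Met (log2 0.35, adjusted p = 0.0441 by edgeR, lines overlapping). The replicate block lost the call of Srgn (adjusted p = 0.0536).

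The groups share replicate numbers 1 and 2, but the labels give no pairing, and the deviations of same-numbered libraries correlated at -0.133 in the PARP1 line and 0.147 in the PARP2 line. A replicate block gave 14 calls in PARP1CKO, 6 in PARP2CKO, 2028 between the lines and 3 for the difference. Crossing the PARP1CKO numbers in the block, an alternative chosen after seeing the data, gave 18 calls in PARP1CKO.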
